A study of Mus musculus with 24 samples.

Results

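The suppressor of cytokine signalling (SOCS) family is a group of proteins that dampen signalling by cytokine and other receptors, and its 8 genes are Socs1, Socs2, Socs3, Socs4, Socs5, Socs6, Socs7 and Cish. They were taken by gene symbol from a table of 24273 genes, in which each symbol occurred once, and all 8 passed the filter on low values in all 24 libraries. The study sequenced RNA of macrophages that had been differentiated in culture from the marrow of C57BL/6 mice (BMDMs). LysM-Cre cells were the control, and LysM-Cre Fos-fl/fl cells, labelled FosKO, lacked the transcription factor FOS by design. Cells were left without stimulus (0 h) or received lipopolysaccharide (LPS, 100 ng/ml), the bacterial ligand of Toll-like receptor 4, for 0.5, 1 or 2 h, with 3 libraries in each of the 8 groups. The aim stated for the series was to find which genes FOS controls. Both genotypes carry Cre, which LysM-Cre expresses from the lysozyme locus Lyz2 in myeloid cells, and the study's text describes the control mice as Fos FL/+ LysM-Cre. Ages of the mice that gave the marrow were not given in the sources used here. The methods call the libraries biological replicates without saying whether each came from a separate mouse or culture, so p-values measure the spread between these libraries, which may be technical.

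Cytokines bind receptors that carry Janus kinases (JAKs), and the JAKs phosphorylate STAT transcription factors, which enter the nucleus and switch on their targets. SOCS genes are among those targets. The proteins bind phosphorylated receptors or JAKs through an SH2 domain, and a SOCS box recruits elongins and Cullin-5 to form a ubiquitin ligase, so that the pathway dampens itself. In macrophages SOCS1 limits interferon signalling and SOCS3 limits signalling by interleukin 6 through gp130, while CISH and SOCS2 are best known as STAT5-induced inhibitors of growth hormone, erythropoietin and interleukin receptors. SOCS4 and SOCS5 have been tied to the epidermal growth factor receptor, and SOCS6 and SOCS7 to receptor tyrosine kinases and insulin signalling.

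Each value is 1 log2 number per gene and library, normalised between libraries by the authors, and the depth behind a value is unknown because the table holds no counts. The transform behind the values is not stated. Folds are taken from differences in these values and need not equal ratios of counts, in particular for genes at low levels. Fos itself went against its label at 3 of the 4 times. Its level was 11.07 to 11.17 (0 h), 11.02 to 11.34 (1 h) and 9.42 to 9.61 (2 h) in LysM-Cre, against 12.41 to 12.72, 12.67 to 12.86 and 12.67 to 12.93 in FosKO. At 0.5 h LysM-Cre stood higher, at 13.43 to 13.57 against 12.64 to 12.81. A value for the whole gene cannot separate the deleted stretch, so it does not check the deletion, and the FosKO libraries are named by their label. Lyz2 was at 10.87 to 11.57 in LysM-Cre and at 16.08 or above in FosKO, so the genotypes also differed at the locus that holds the driver. The 18S ribosomal row Rn18s-rs5 was low (16.65 to 17.00) in 5 libraries, at 0.5 h and 1 h in both genotypes, and high (18.57 to 19.39) in the other 19, including every library at 0 h and 2 h. Values within each 18S set stand beside the members' genotype differences at those times. LPS responses and gene lists were not split into both sets, although the members' LPS responses were also fitted with high 18S libraries alone. All 7 macrophage markers tested stood at 9.07 or above, with a summed linear level of 140584 to 186723 over all libraries. Sums in LysM-Cre and FosKO were 48.7 to 99.5 and 32.5 to 53.3 for the neutrophil list, 193 to 239 and 257 to 349 for the T cell list, 27.5 to 119 and 27.0 to 85.4 for the dendritic cell list, and 14.4 to 28.2 and 13.7 to 21.5 for the fibroblast list. Between 0 h and 2 h of LPS the dendritic cell sums went from 27.5 to 30.5 up to 108 to 119 in LysM-Cre and from 27.0 to 34.8 up to 82.6 to 85.4 in FosKO. Neutrophil sums went from 48.7 to 58.4 up to 73.7 to 99.5, and from 32.5 to 38.4 up to 45.8 to 53.3. T cell sums came from Cd4, the only 1 of 4 T cell markers that passed the filter, and sums of the B cell, natural killer and mast cell lists were at or below 7.41. Neutrophil sums came mainly from S100a8 (4.09 to 5.41) and S100a9 (3.85 to 5.82), which passed the filter. Ly6g and Elane of the same list did not pass and were at or below -2.20 in every library. The part of these lists in the results was not tested, and in bulk RNA fewer cells of a type cannot be told apart from less RNA per cell.

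Socs1, Socs3 and Cish are the members whose LPS response was largest, and reference sequence around their start sites is shown first because the motifs in it differ between these 3 genes. RefSeq promoter windows of 300 bases (build GRCm38.p6, 250 before and 50 after the start) matched 4 of the 8 members, Socs1, Socs3, Socs4 and Cish. Motifs were searched on both strands. Capitals mark TTCNNNGAA, the palindrome bound by STAT dimers, or GAAA, any 2 bases and GAAA, a core of the interferon-stimulated response element that was added to the search after the windows had been seen. The Socs1 stretch is chr16:10785537-10785786 (minus strand) and the Socs3 stretch chr11:117969367-117969616 (minus strand), each covering the 250 bases before the start, while the Cish stretch is chr9:107296657-107296680 (plus strand).
Socs1: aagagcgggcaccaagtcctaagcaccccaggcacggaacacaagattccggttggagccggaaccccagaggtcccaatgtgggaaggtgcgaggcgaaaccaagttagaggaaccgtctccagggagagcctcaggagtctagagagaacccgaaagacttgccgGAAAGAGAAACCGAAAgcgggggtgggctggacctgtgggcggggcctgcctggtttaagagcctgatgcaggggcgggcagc
Socs3: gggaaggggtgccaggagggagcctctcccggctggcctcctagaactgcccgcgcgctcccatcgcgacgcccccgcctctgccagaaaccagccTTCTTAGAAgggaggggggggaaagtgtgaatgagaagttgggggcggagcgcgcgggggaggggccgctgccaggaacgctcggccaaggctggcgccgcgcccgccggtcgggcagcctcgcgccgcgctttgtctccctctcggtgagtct
Cish: ttTTCCTGGAAagTTCTTGGAAat
The Socs1 window held 2 overlapping matches to the interferon element, beginning 83 and 77 bases before the start, and none to TTCNNNGAA. The Socs3 window held 1 match to TTCNNNGAA, beginning 154 bases before the start. Cish held 2 such matches in tandem, beginning at bases 1 and 12 after the RefSeq start and inside the 5' untranslated region of a GENCODE transcript that begins upstream. The Socs3 stretch lies upstream of the protein-coding GENCODE transcript and overlaps an exon of a noncoding one. Over all 32851 windows, 8.3% held TTCNNNGAA and 3.44% held the interferon element. None of the 4 windows held the AP-1 letters TGANTCA (7.81% of all windows), the cyclic AMP element TGACGTCA (1.79%) or TATAAA (13.6%). The letters GGG, any 5 bases and CC, part of an NF-kB site, stood in each of the 4 windows and in 50.8% of all windows. A match is a description of these letters and not a binding site.

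Levels of different genes were compared per length, as the log2 value minus log2 of the kilobases of GENCODE exon. That length is the union of exons over all annotated transcripts, 2908 bases for Socs1, 7265 for Socs7 and 6419 for Cish. It may exceed the length of the transcripts present, and no other length was tried. The order between genes, above all between those close in level, therefore depends on this choice. At 0 h in LysM-Cre the order from high to low was Socs3 (7.75 ± 0.04, SD, n = 3), Socs4 (7.10 ± 0.06), Socs7 (6.89 ± 0.03), Socs6 (6.54 ± 0.07), Socs5 (6.45 ± 0.07), Socs1 (4.16 ± 0.14), Cish (2.05 ± 0.08) and Socs2 (0.22 ± 0.14). Among neighbours in that order, the libraries of Socs6 and Socs5 overlapped and the others did not. In FosKO at 0 h the order was the same, from Socs3 at 7.83 ± 0.10 to Socs2 at 0.58 ± 0.19 on this scale, and Socs4 and Socs7 overlapped. After 2 h of LPS Socs3 still led in both genotypes, at 12.17 ± 0.05 in LysM-Cre and 12.29 ± 0.07 in FosKO. Socs1 (8.07 ± 0.07) and Cish (7.24 ± 0.05) had passed Socs4, Socs5 and Socs6 in LysM-Cre. In FosKO Socs1, at 8.92 ± 0.05, had also passed Socs7, at 8.86 ± 0.01, whereas in LysM-Cre Socs7 (8.29 ± 0.06) stayed above Socs1. Cish (7.25 ± 0.11) and Socs4 (7.23 ± 0.05) overlapped in FosKO at 2 h. Socs2 was last at every time in both genotypes.

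**Figure D1:**
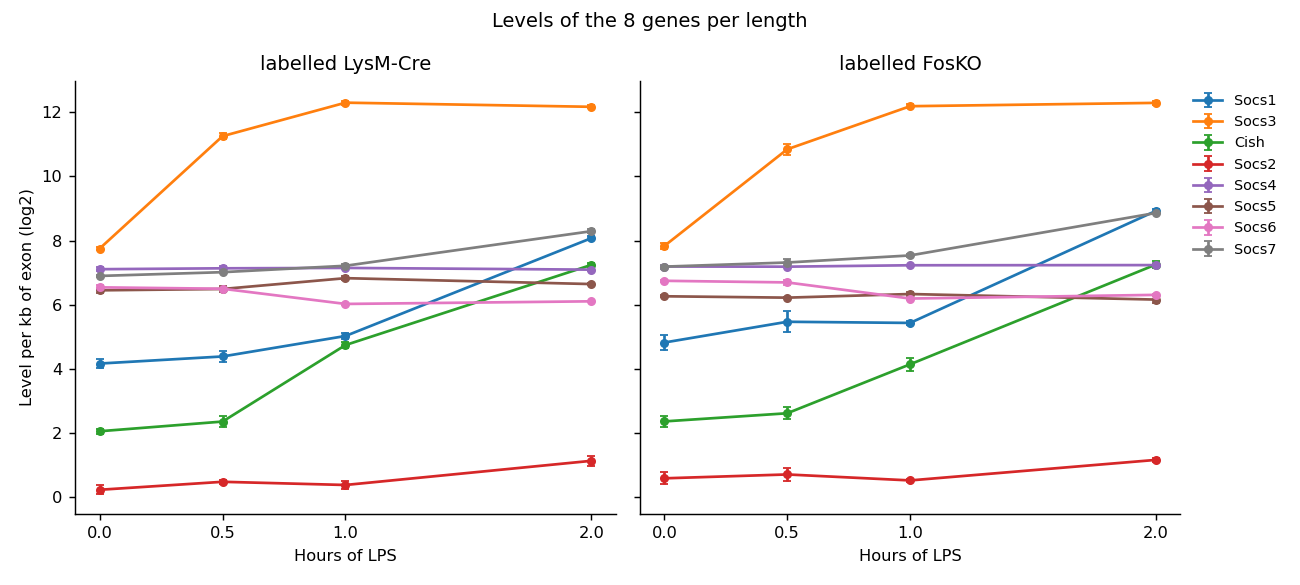
Level of each of the 8 genes per kilobase of exon (y axis, log2) against hours of LPS (x axis), for LysM-Cre on the left and FosKO on the right; points are means of 3 libraries and bars are 1 SD. Socs3 is highest throughout and Socs2 lowest, while Socs1 and Cish climb from the bottom to the middle and upper part of the family by 2 h.

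Members called different between genotypes numbered 6 of 8 at 0 h (5 higher and 1 lower in FosKO) where 35.4% of the 13901 genes tested were called. The 0.5 h comparison called 5 (3 up, 2 down; 40.9% of all genes), the 1 h comparison 5 (3 up, 2 down; 33.9%) and the 2 h comparison 5 (4 up, 1 down; 44.6%). The median difference of the 8 was 0.25, 0.21, 0.11 and 0.13 at the 4 times, against 0.00 over all genes tested at each. With 8 genes these shares are a description. A call is an adjusted p under 0.05 by limma, a linear model fitted to every gene, with Benjamini-Hochberg adjustment over all genes tested. With 3 libraries against 3 an exact two-sided permutation test cannot go below 0.1, so the calls rest on the spread that limma pools over groups and genes.

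In LysM-Cre, 1 member was called after 0.5 h of LPS (7.24% of all genes), 6 after 1 h (5 higher, 1 lower; 35.8%) and 7 after 2 h (6 higher, 1 lower; 60.8%). In FosKO the counts were 2 (5.92%), 5 (4 higher, 1 lower; 32.6%) and 6 (5 higher, 1 lower; 62.1%). Median log2 changes of the 8 at 2 h were 1.15 in LysM-Cre and 1.12 in FosKO, against -0.02 and 0.00 over all genes tested. A change in response to LPS that differed between genotypes was called for 0 members at 0.5 h (0.115% of all genes; 2 members had an unadjusted p under 0.05), 1 at 1 h (1.22%) and 2 at 2 h (15.0%). All comparisons after LPS within a genotype share the same 3 libraries at 0 h.

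**Figure D2:**
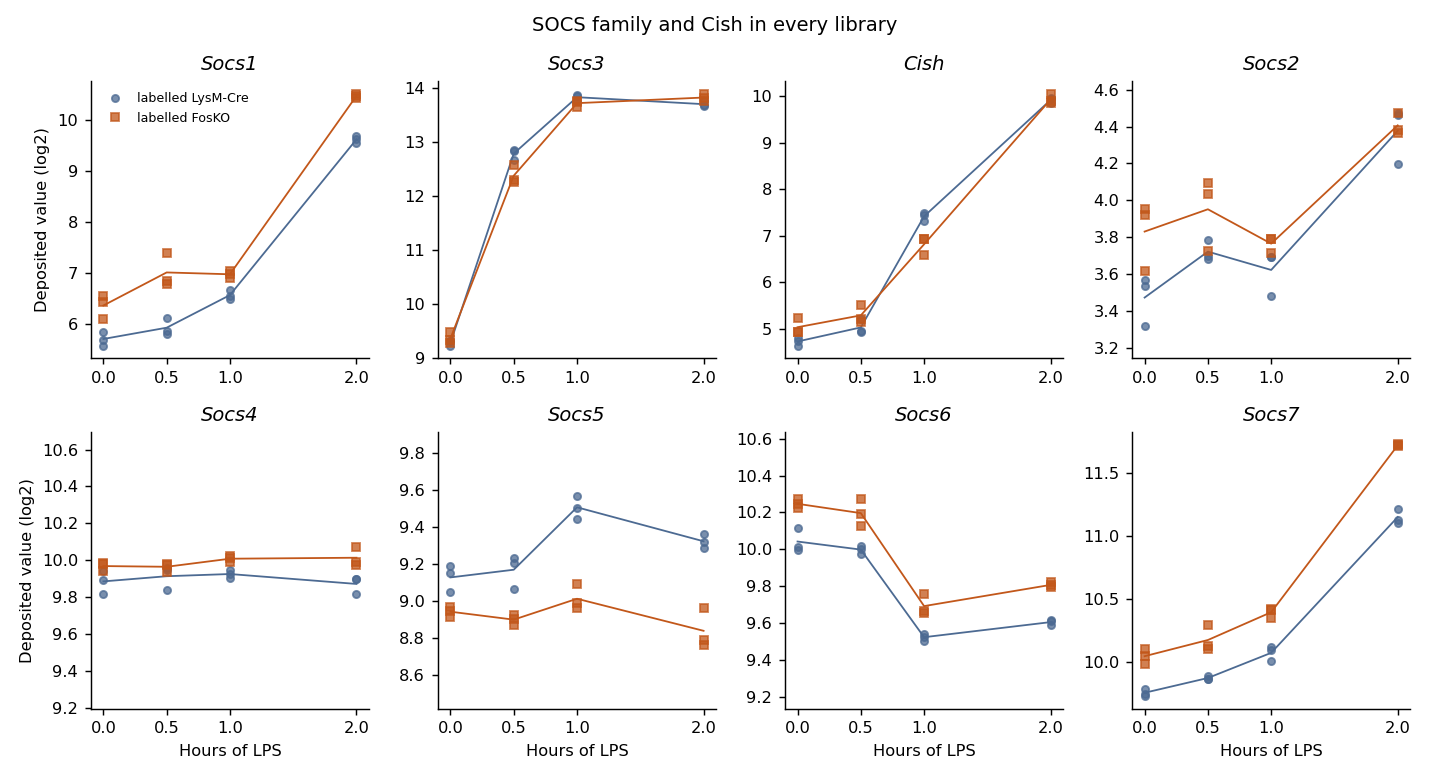
Deposited log2 value of each gene (y axis, scaled per panel) against hours of LPS (x axis); each point is 1 library, circles LysM-Cre and squares FosKO, and lines join the means of 3. Socs1 and Socs7 lie higher in FosKO at every time, Socs5 lies lower, Socs3 separates at 0.5 h and Cish at 1 h.

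Socs1, the inhibitor of JAK1, JAK2 and TYK2 downstream of interferon receptors, was higher in FosKO at every time measured and rose late. It lies at chr16:10782240-10785536 on the minus strand (GRCm38, GENCODE vM21), and its identifier in the table is ENSMUSG00000038037. Its log2 levels in LysM-Cre were 5.84, 5.57 and 5.69 without LPS, 5.79, 5.85 and 6.12 after 0.5 h, 6.49, 6.65 and 6.54 after 1 h, and 9.61, 9.55 and 9.68 after 2 h. FosKO libraries held 6.10, 6.42 and 6.55 without LPS, 6.84, 6.78 and 7.39 after 0.5 h, 6.97, 7.04 and 6.89 after 1 h, and 10.42, 10.47 and 10.51 after 2 h. The genotypes did not overlap at any time, and in both the largest step came between 1 h and 2 h. FosKO exceeded LysM-Cre by 0.66 ± 0.13 (SE; 1.58-fold, adjusted p = 4.63e-04) at 0 h, 1.08 ± 0.13 (2.12-fold, 1.13e-06) at 0.5 h, 0.41 ± 0.13 (1.33-fold, 0.0191) at 1 h and 0.85 ± 0.13 (1.80-fold, 1.85e-05) at 2 h. Split by 18S content, the 0.5 h difference was 1.26 in the high set (2 libraries against 2) and 0.73 in the low set (1 against 1). At 1 h it was 0.48 (2 FosKO against 1 LysM-Cre) and 0.38 (1 against 2). The call at 1 h was lost with the high 18S libraries alone (0.48, adjusted p = 0.0970) and without LysM-Cre replicate 1 (0.37, 0.0653), LysM-Cre replicate 3 (0.40, 0.0517) or FosKO replicate 2 (0.37, 0.0717).

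LPS raised Socs1 by 3.91 ± 0.13 (15.1-fold, adjusted p = 3.47e-16) at 2 h in LysM-Cre and by 4.11 ± 0.13 (17.2-fold, 1.67e-16) in FosKO. From 1 h to 2 h alone the rise was 3.05 in LysM-Cre and 3.50 in FosKO. At 0.5 h the change was 0.22 in LysM-Cre, which was not called (95% interval -0.05 to 0.49). In FosKO it was 0.65 and called (adjusted p = 0.00283), although that call was lost when only the groups compared entered the fit (adjusted p = 0.221). The difference between these changes, 0.43 at 0.5 h (95% interval 0.04 to 0.81, adjusted p = 0.740), was not called, nor were those at 1 h (-0.25, -0.63 to 0.14) and 2 h (0.20, -0.19 to 0.58). The higher Socs1 level in FosKO was thus present before LPS.

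Socs3, which binds gp130 and the JAKs attached to it, rose first and to the highest level of the family, and it was lower in FosKO at 0.5 h. It lies at chr11:117966079-117970047 on the minus strand (ENSMUSG00000053113). LysM-Cre libraries held 9.31, 9.31 and 9.23 without LPS, 12.67, 12.85 and 12.84 after 0.5 h, 13.77, 13.85 and 13.88 after 1 h, and 13.67, 13.68 and 13.76 after 2 h on the log2 scale. In FosKO the log2 levels were 9.28, 9.33 and 9.48, then 12.29, 12.27 and 12.57, then 13.64, 13.75 and 13.77, and last 13.76, 13.82 and 13.90. The genotypes overlapped at 0 h, were apart at 0.5 h with every FosKO library below every LysM-Cre library, overlapped at 1 h, and at 2 h were narrowly apart with FosKO above. The difference was -0.41 ± 0.07 at 0.5 h (1.33-fold lower in FosKO, adjusted p = 6.39e-05), and -0.34 and -0.55 within the high and low 18S sets. At the other times it was not called, with 0.08 (95% interval -0.06 to 0.22) at 0 h, -0.11 (-0.25 to 0.03) at 1 h and 0.12 (-0.02 to 0.27) at 2 h. Among high 18S libraries the 1 h value was -0.00, and among low ones -0.22. Under quantile normalisation the 1 h difference was -0.24 and was called (adjusted p = 0.00460), as was the 2 h difference with only the groups compared (0.12, 0.0299).

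After 0.5 h of LPS Socs3 was up by 3.51 ± 0.07 (11.4-fold, adjusted p = 2.91e-19) in LysM-Cre and by 3.02 ± 0.07 (8.10-fold, 5.19e-18) in FosKO. It was the only member called at 0.5 h in LysM-Cre, and with Socs1 made up the 2 called in FosKO. By 1 h its rise had reached 4.55 and 4.36, and at 2 h it was 4.42 and 4.47. Neither genotype had a called step between 1 h and 2 h, with -0.13 (95% interval -0.27 to 0.01) in LysM-Cre and 0.10 (-0.04 to 0.25) in FosKO. In LysM-Cre that step was called under quantile normalisation (-0.24, adjusted p = 0.00260) and with only the groups compared (-0.13, 0.0181). The 0.5 h response was smaller in FosKO by 0.49 (95% interval -0.69 to -0.29), a difference whose adjusted p of 0.0549 missed the threshold. That difference passed it without LysM-Cre 0.5 h replicate 1 (-0.55, adjusted p = 0.0160), without FosKO 0 h replicate 1 (-0.53, 0.0414) and without FosKO 0.5 h replicate 3 (-0.59, 0.00142), as well as under quantile normalisation (-0.59, 0.00191).

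Cish, the founding member of the family and a target of STAT5, had the largest LPS response of the 8 at 2 h and was lower in FosKO at 1 h. It lies at chr9:107296026-107302784 on the plus strand (ENSMUSG00000032578). Its log2 levels in LysM-Cre were 4.81, 4.74 and 4.64 without LPS, 4.96, 5.21 and 4.92 after 0.5 h, 7.49, 7.31 and 7.46 after 1 h, and 9.94, 9.86 and 9.96 after 2 h. In FosKO they were 4.94, 4.92 and 5.24 without LPS, 5.21, 5.15 and 5.51 after 0.5 h, 6.59, 6.94 and 6.93 after 1 h, and 9.89, 9.85 and 10.06 after 2 h. FosKO was above LysM-Cre without overlap at 0 h, overlapped it at 0.5 h, was below it without overlap at 1 h, and overlapped it again at 2 h. The 1 h difference was -0.60 ± 0.11 (1.52-fold lower, adjusted p = 2.92e-04), with -0.55 in the high 18S set (2 FosKO libraries against 1) and -0.80 in the low set (1 against 2). At 0 h the difference was 0.31 ± 0.11 (1.24-fold, adjusted p = 0.0405), and this call was lost without LysM-Cre replicate 2 (0.31, 0.0810), LysM-Cre replicate 3 (0.26, 0.133) or FosKO replicate 3 (0.20, 0.224). Differences of 0.26 (95% interval 0.02 to 0.50) at 0.5 h and 0.01 (-0.22 to 0.25) at 2 h were not called. The 0.5 h difference was 0.24 and 0.29 in the high and low 18S sets, and it was called without LysM-Cre replicate 2 (0.35, adjusted p = 0.0301) or FosKO replicate 2 (0.33, 0.0437), under quantile normalisation (0.31, 0.0254) and with 18S content as a term (0.26, 0.0463).

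The LPS change of Cish was 2.69 ± 0.11 at 1 h (6.45-fold, adjusted p = 5.10e-14) and 5.19 ± 0.11 at 2 h (36.5-fold, 3.76e-19) in LysM-Cre. In FosKO it was 1.78 ± 0.11 (3.44-fold, 5.69e-11) and 4.90 ± 0.11 (29.8-fold, 1.06e-18). The 1 h response was smaller in FosKO by 0.91 ± 0.16 (95% interval -1.24 to -0.57, adjusted p = 0.00291), the only member called in that comparison. With the high 18S libraries alone this difference was -0.86 (adjusted p = 0.0560). By 2 h it was -0.29 (95% interval -0.63 to 0.04, adjusted p = 0.252). The step from 1 h to 2 h was 2.50 in LysM-Cre and 3.11 in FosKO, so Cish reached overlapping levels at 2 h in both. The antisense gene Gm17041 (chr9:107300380-107301838) overlaps Cish, and its levels were 2.39 to 3.68 at 0 h, 0.5 h and 1 h and 4.80 to 5.46 at 2 h. In every library Cish stood at least 2.09 above Gm17041 on the log2 scale, and at least 4.60 above it at 2 h. The methods describe strand-specific reads but not the strand setting of the counting, so a share of reads from Gm17041 in the Cish value cannot be told apart.

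**Figure D3:**
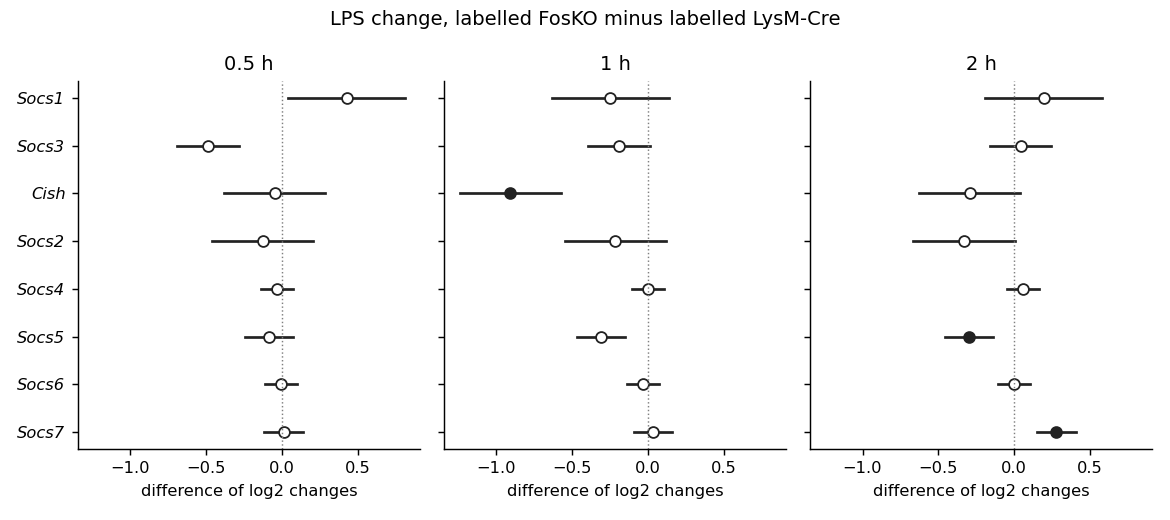
Difference between the LPS change in FosKO and that in LysM-Cre (x axis, difference of log2 changes) for each gene at 0.5, 1 and 2 h; points are estimates, lines 95% intervals, and filled points are called. Cish at 1 h (-0.91), Socs5 at 2 h (-0.30) and Socs7 at 2 h (0.28) are the filled points.

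Socs2, an inhibitor of growth hormone signalling that STAT5 also induces, was the lowest member and rose modestly at 2 h. It lies at chr10:95385362-95417180 on the minus strand (ENSMUSG00000020027). LysM-Cre libraries held log2 levels of 3.32, 3.57 and 3.53 without LPS, 3.79, 3.70 and 3.68 after 0.5 h, 3.48, 3.69 and 3.69 after 1 h, and 4.20, 4.47 and 4.46 after 2 h. FosKO libraries held 3.62, 3.92 and 3.95, then 4.04, 3.73 and 4.09, then 3.72, 3.79 and 3.79, and last 4.38, 4.37 and 4.47. Genotypes were apart at 0 h and narrowly at 1 h, and overlapped at 0.5 h and 2 h. The 0 h difference of 0.36 ± 0.11 (1.28-fold higher in FosKO, adjusted p = 0.0184) was the only 1 of the 4 called. It was lost without LysM-Cre replicate 1 (0.28, adjusted p = 0.0986), FosKO replicate 2 (0.31, 0.0752) or FosKO replicate 3 (0.30, 0.0909). The differences that were not called were 0.23 (95% interval -0.01 to 0.47) at 0.5 h, 0.14 (-0.10 to 0.38) at 1 h and 0.03 (-0.21 to 0.27) at 2 h. By 18S content, high then low, the 0.5 h values were 0.17 and 0.35, and the 1 h values 0.31 and 0.02. Without FosKO 0.5 h replicate 2 the 0.5 h difference was called (0.34, adjusted p = 0.0262). The LPS change at 2 h was 0.90 ± 0.11 in LysM-Cre (1.87-fold, adjusted p = 6.46e-07) and 0.57 ± 0.11 in FosKO (1.49-fold, 1.68e-04). The difference between these responses, -0.33 (95% interval -0.66 to 0.01), was not called.

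Socs5, which has been linked to degradation of the epidermal growth factor receptor, was the only member lower in FosKO at every time measured. It lies at chr17:87107679-87137839 on the plus strand (ENSMUSG00000037104). In LysM-Cre its log2 levels were 9.05, 9.15 and 9.19 without LPS, 9.06, 9.21 and 9.23 after 0.5 h, 9.45, 9.50 and 9.57 after 1 h, and 9.29, 9.32 and 9.36 after 2 h. FosKO held 8.95, 8.97 and 8.91 without LPS, 8.90, 8.87 and 8.92 after 0.5 h, 8.99, 8.96 and 9.09 after 1 h, and 8.76, 8.79 and 8.96 after 2 h. No FosKO library reached the lowest LysM-Cre library of the same time. The differences were -0.19 ± 0.05 (adjusted p = 0.0104), -0.27 ± 0.05 (3.83e-04), -0.50 ± 0.05 (4.76e-07) and -0.48 ± 0.05 (3.55e-07), or 1.14, 1.21, 1.41 and 1.40-fold lower in FosKO. The 0.5 h values in the high and low 18S sets were -0.24 and -0.33, and the 1 h values -0.42 and -0.55. Without LysM-Cre 0 h replicate 3 the 0 h difference was -0.16 (adjusted p = 0.0553).

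LPS raised Socs5 in LysM-Cre by 0.38 ± 0.05 (1.30-fold, adjusted p = 8.46e-06) at 1 h and by 0.20 ± 0.05 (1.15-fold, 0.00358) at 2 h. In FosKO the changes were 0.07 (95% interval -0.04 to 0.18) and -0.10 (-0.22 to 0.01), and neither was called. Without FosKO 2 h replicate 3 the latter was -0.16 and called (adjusted p = 0.0116). The response was smaller in FosKO by 0.30 ± 0.08 at 2 h (95% interval -0.46 to -0.14, adjusted p = 0.0102). At 1 h it was smaller by 0.31 ± 0.08 (-0.47 to -0.15), with an adjusted p of 0.0506 that missed the threshold. The 1 h difference passed it without LysM-Cre 1 h replicate 1 (-0.34, 0.0424) or FosKO 1 h replicate 3 (-0.35, 0.0296). It also passed with TMM factors (-0.31, adjusted p = 0.0452) and with the stricter filter (-0.31, 0.0461).

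Socs7, a member with a long amino-terminal region that binds insulin receptor substrate and adaptor proteins, was higher in FosKO at every time measured, most at 2 h. It lies at chr11:97362551-97398542 on the plus strand (ENSMUSG00000038485), on the same chromosome as Socs3. LysM-Cre libraries held log2 levels of 9.75, 9.73 and 9.79 without LPS, 9.89, 9.86 and 9.87 after 0.5 h, 10.09, 10.12 and 10.01 after 1 h, and 11.13, 11.11 and 11.21 after 2 h. FosKO libraries held 9.99, 10.05 and 10.11, then 10.10, 10.13 and 10.29, then 10.35, 10.41 and 10.42, and last 11.72, 11.73 and 11.71. At each time every FosKO library lay above every LysM-Cre library. The differences were 0.29 ± 0.04 (1.22-fold, adjusted p = 2.16e-05), 0.30 ± 0.04 (1.23-fold, 9.93e-06), 0.32 ± 0.04 (1.25-fold, 6.09e-06) and 0.57 ± 0.04 (1.48-fold, 1.97e-09). Split by 18S content, high and low, the 0.5 h values were 0.34 and 0.23, and the 1 h values 0.32 and 0.29. LPS raised Socs7 at 1 h by 0.32 in LysM-Cre and 0.35 in FosKO. At 2 h the rise was 1.40 ± 0.04 (2.63-fold, adjusted p = 1.06e-16) and 1.67 ± 0.04 (3.19-fold, 5.93e-18). The 2 h response was larger in FosKO by 0.28 ± 0.06 (95% interval 0.15 to 0.41, adjusted p = 0.00325). The changes of 0.12 in LysM-Cre and 0.13 in FosKO at 0.5 h were not called, although the FosKO change was without FosKO 0 h replicate 3 (0.16, adjusted p = 0.0472) or FosKO 0.5 h replicate 1 (0.16, 0.0376) and with 18S content as a term (0.15, 0.0421). The LysM-Cre change was called with only the groups compared (0.12, adjusted p = 0.0421).

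Socs6, which binds the stem cell factor receptor KIT and other receptor tyrosine kinases, was lowered by LPS at 1 h and 2 h, and it was higher in FosKO throughout. It lies at chr18:88665224-88927481 on the minus strand (ENSMUSG00000056153), and 3 processed pseudogenes that overlap it are not in the table analysed. In LysM-Cre its log2 levels were 10.00, 10.12 and 10.01 without LPS, 10.01, 9.97 and 10.02 after 0.5 h, 9.53, 9.54 and 9.50 after 1 h, and 9.62, 9.59 and 9.61 after 2 h. FosKO held 10.22, 10.27 and 10.25, then 10.19, 10.27 and 10.13, then 9.76, 9.67 and 9.65, and last 9.82, 9.81 and 9.80. The genotypes did not overlap at any time, and in both the levels at 1 h and 2 h lay below every library of 0 h and 0.5 h. FosKO exceeded LysM-Cre by 0.20 ± 0.04 at 0 h (adjusted p = 1.28e-04), 0.20 ± 0.04 at 0.5 h (1.41e-04), 0.17 ± 0.04 at 1 h (9.08e-04) and 0.20 ± 0.04 at 2 h (9.90e-05). Split by 18S content, high and low, the values were 0.21 and 0.18 at 0.5 h and 0.14 and 0.23 at 1 h, and with high 18S libraries alone the 1 h difference was not called (adjusted p = 0.104). The LPS change at 1 h was -0.52 ± 0.04 in LysM-Cre (1.43-fold lower, adjusted p = 1.98e-10) and -0.55 ± 0.04 in FosKO (1.47-fold lower, 7.06e-11), and at 2 h it was -0.44 in each. The responses differed by -0.04 at 1 h (95% interval -0.14 to 0.07) and -0.00 at 2 h (-0.11 to 0.10).

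Socs4, the close relative of Socs5, hardly moved. It lies at chr14:47276931-47296102 on the plus strand (ENSMUSG00000048379). Its log2 level lay between 9.82 and 10.07 in all 24 libraries. The genotypes overlapped at 0 h and 0.5 h, and at 1 h and 2 h every FosKO library lay above every LysM-Cre library. At 2 h LysM-Cre held 9.82, 9.90 and 9.90 and FosKO 9.98, 9.99 and 10.07, a difference of 0.14 ± 0.04 (1.10-fold, adjusted p = 0.00299), which was lost under quantile normalisation (0.08, adjusted p = 0.0685). The differences at 0 h (0.08, 95% interval 0.01 to 0.16), 0.5 h (0.05, -0.02 to 0.13) and 1 h (0.08, 0.01 to 0.16) were not called. They were 0.01 and 0.14 at 0.5 h and 0.09 and 0.07 at 1 h in the high and low 18S sets. Without LysM-Cre 0 h replicate 3 the 0 h difference was called (0.11, adjusted p = 0.0324). No LPS change of Socs4 was called in either genotype, and its changes at 2 h had 95% intervals of -0.09 to 0.06 in LysM-Cre and -0.03 to 0.12 in FosKO. Under quantile normalisation the LysM-Cre change at 2 h was -0.10 and was called (adjusted p = 0.0173).

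**Figure D4:**
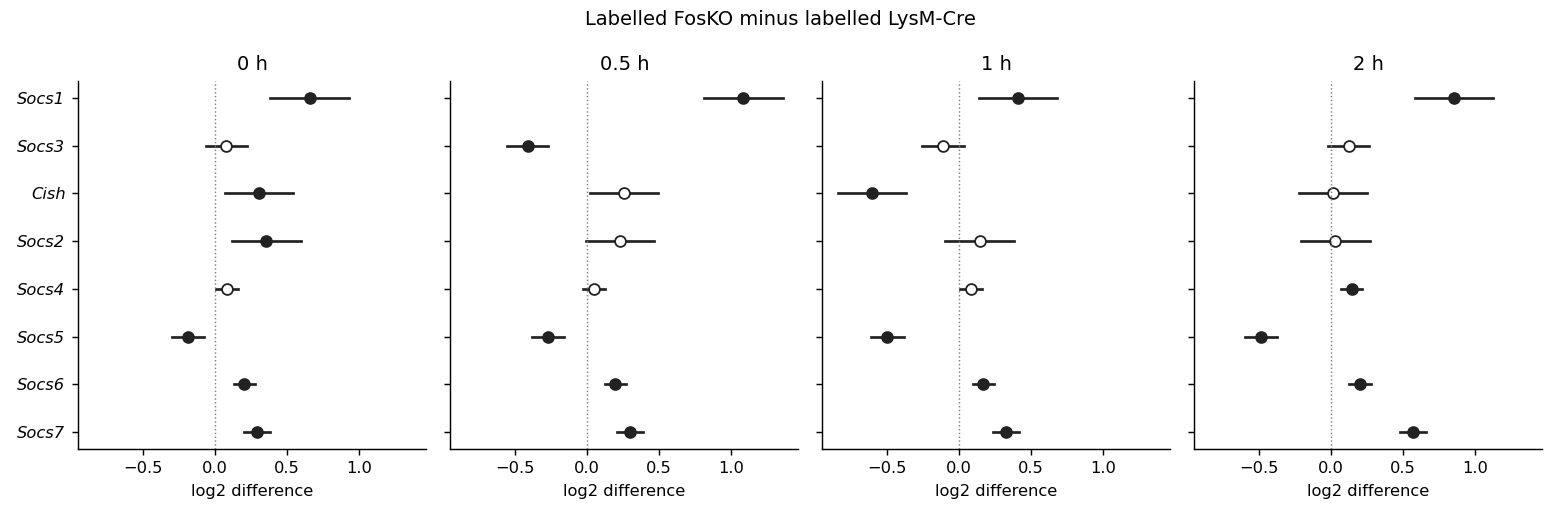
Difference between FosKO and LysM-Cre (x axis, log2) for each gene at 0, 0.5, 1 and 2 h of LPS; points are estimates, lines 95% intervals, and filled points are called. Socs1, Socs6 and Socs7 lie to the right of 0 and are filled at each time, and Socs5 lies to the left and is filled at each time. Socs3 is filled on the left at 0.5 h and Cish on the left at 1 h. On the right, Socs2 and Cish are also filled at 0 h and Socs4 at 2 h.

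Genes with the most similar course were sought over the 8 group means among genes spanning at least 1 log2 unit. For Socs1 they were Kremen1 (Pearson r = 0.997), Art3 (0.997) and Ddhd1 (0.996). For Socs3 they were Gadd45b, a stress-induced regulator of MAP kinase signalling (r = 0.994), the heat shock protein gene Hspa1a (0.993) and the neutrophil-attracting chemokine gene Cxcl1 (0.987). For Cish they were the CREB coactivator gene Crtc2 (r = 0.998), the orphan nuclear receptor gene Nr4a3 (0.997) and Aebp2 (0.996). For Socs2 they were Afap1l1 (r = 0.984), the interleukin 15 receptor chain gene Il15ra (0.979) and the interferon-induced gene Mx2 (0.977). The 8 points share their libraries and the common LPS time course, about 2695 genes competed for each rank, and the coefficients are a description. Among the members, Socs1 had r = 0.99 with Socs7, 0.95 with Socs2, 0.93 with Cish and 0.56 with Socs3 over the same means, and r was between -0.42 and 0.23 with Socs4, Socs5 and Socs6.

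The rest of the pathway was read from gene lists, starting with the ligands. Shares of all genes called in these comparisons, and the all-gene medians of 0.00 between genotypes, are those given above, and the lists are described by counts and medians alone. Of 14 tested cytokine genes whose receptors use JAKs, 6 were higher and 0 lower in unstimulated FosKO cells. After both 0.5 h and 1 h of LPS 7 were higher and 3 lower, and after 2 h 9 were higher and 3 lower. The list median of the difference was 0.11, 0.19, 0.28 and 0.48 at the 4 times. Ifnb1, which encodes interferon beta, was higher by 1.69, 3.18 and 3.00 after 0.5, 1 and 2 h of LPS, and its 0 h difference of 0.10 missed the threshold. Il6 was higher by 0.66, 1.65 and 1.41 at 0.5, 1 and 2 h, and its 0 h difference of 0.12 was not called. Il10, whose product signals through STAT3, was lower in FosKO by 0.75, 1.36 and 1.70 at these times (log2 differences of -0.75, -1.36 and -1.70), and its 0 h difference of -0.26 was not called. LPS raised 13 of the 14 in each genotype at 2 h, with medians of 2.29 in LysM-Cre and 2.18 in FosKO. Among the largest rises in LysM-Cre were those of Il12b (5.80, and 6.85 in FosKO), Il6 (4.90 and 6.19) and Il27 (4.84 and 5.56).

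Among 19 tested receptor chains, 7, 8, 5 and 5 were higher in FosKO and 5, 5, 7 and 8 lower at the 4 times, with list medians of 0.06, 0.07, 0.04 and -0.08. Csf3r, the receptor of granulocyte colony-stimulating factor, was higher by 1.10, 1.28, 1.01 and 0.99 at the 4 times. Lifr, the leukaemia inhibitory factor receptor, differed by -0.84, -1.01, -0.72 and -0.55. Il15ra was higher by 1.01, 1.27 and 0.81 at 0, 0.5 and 1 h, and at 2 h its difference of 0.43 missed the threshold (adjusted p = 0.0529). LPS at 2 h raised Il15ra by 2.49, Il10ra by 1.20 and Il4ra by 1.09 in LysM-Cre, and by 1.91, 1.37 and 0.64 in FosKO.

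All 11 JAK and STAT genes were tested. In FosKO 8, 7, 5 and 8 were higher and 0, 0, 1 and 1 lower at the 4 times, with list medians of 0.12, 0.12, 0.12 and 0.14. Stat2, a factor of interferon signalling, was higher by 0.93, 1.21, 1.08 and 0.57 at the 4 times. Stat3 was higher by 0.16, 0.23, 0.18 and 0.56. LPS raised 9 of the 11 at 2 h in each genotype, including Stat5a by 3.02 in LysM-Cre and 2.71 in FosKO, Jak2 by 2.47 and 2.09 and Stat5b by 0.66 and 0.56. At 2 h Stat5a was lower in FosKO (-0.33), while the differences of Jak2 (0.07) and Stat5b (0.00) were not called.

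Other inhibitors of cytokine signalling (13 tested) were higher in FosKO in 5, 6, 4 and 10 cases and lower in 0, 1, 3 and 2 at the 4 times, with list medians of 0.09, 0.10, 0.07 and 0.22. Usp18, which removes ISG15 and blocks the type I interferon receptor, was higher by 1.09, 1.26, 1.08 and 0.90. The ubiquitin ligase gene Cblb was higher by 0.27, 0.16, 0.23 and 0.46 and the phosphatase gene Ptpn1 by 0.12, 0.15, 0.20 and 0.35. At 2 h of LPS 6 of the 13 had risen and 6 fallen in LysM-Cre, against 5 and 5 in FosKO. Usp18 rose by 1.33 and 1.14, the phosphatase gene Ptpn2 by 1.05 and 1.20, and Cblb fell by 1.15 and 0.97 (changes of -1.15 and -0.97).

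Subunits of the SOCS-box ubiquitin ligase (8 tested) had 2, 2, 0 and 3 members higher and 2, 1, 1 and 1 lower in FosKO at the 4 times, with list medians of 0.01, 0.04, -0.01 and -0.00. Rnf7, the RING subunit that pairs with Cullin-5, was lower at each time (-0.17, -0.17, -0.23 and -0.25). Cul2 was higher by 0.15, 0.15 and 0.21 at 0, 0.5 and 2 h, and its 1 h difference of 0.04 was not called. LPS at 2 h raised all 8 in LysM-Cre and 6 of 8 in FosKO, led in LysM-Cre by the NEDD8-conjugating enzyme gene Ube2f (1.02, and 0.96 in FosKO), with Cul2 at 0.37 and 0.43 and Cul5 at 0.28 and 0.17.

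Known STAT5 targets other than the members (6 tested) were higher in FosKO in 4 cases at each time and lower in 0, 0, 0 and 1, with list medians of 0.29, 0.22, 0.27 and 0.46. Ccnd2, a G1 cyclin gene, was higher by 0.81, 0.91, 0.76 and 0.42 and the cytokine gene Osm by 0.36, 0.49, 0.57 and 0.66. Bcl6, a transcriptional repressor, fell with LPS at 2 h (-1.23 in LysM-Cre and -0.43 in FosKO) and was higher in FosKO by 0.32 at 1 h and 0.83 at 2 h, while differences of 0.04 at 0 h and 0.01 at 0.5 h were not called. LPS raised Ccnd2 by 2.16 and 1.77 and Pim1, a survival kinase gene, by 2.21 and 2.13 at 2 h.

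TLR4 signalling proteins (13 tested) were higher in FosKO in 7, 6, 4 and 7 cases and lower in 2, 1, 1 and 2, with list medians of 0.12, 0.12, 0.06 and 0.14. Myd88, the adaptor of most Toll-like receptors, was higher by 0.31, 0.43, 0.27 and 0.37, and Irak2 by 0.47, 0.57, 0.28 and 0.45. Tlr4 itself was higher by 0.14 and 0.49 after 1 and 2 h of LPS, and its earlier differences, both 0.05, were not called. LPS at 2 h raised 10 of the 13 in each genotype, among them Nfkb1 (1.92 in LysM-Cre and 1.95 in FosKO), Irak2 (1.63 and 1.60) and the adaptor gene Ticam2 (1.32 and 1.08).

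**Figure D5:**
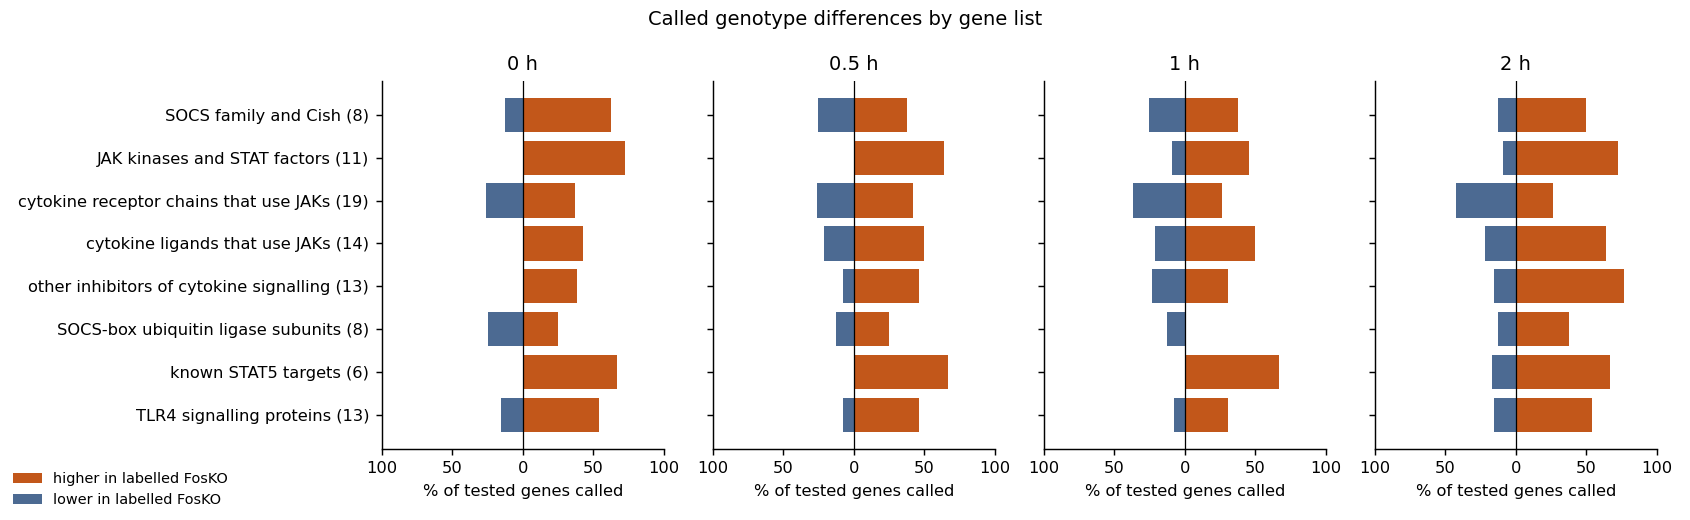
Share of tested genes in each list that were called higher (right) or lower (left) in FosKO than in LysM-Cre (x axis, percent) at 0, 0.5, 1 and 2 h; the number of tested genes stands in parentheses. JAK and STAT genes and STAT5 targets have no lower call at 0 h and 0.5 h, and receptor chains have more lower than higher calls at 1 h and 2 h.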

How the data were processed

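RNA was sequenced from 24 libraries of mouse BMDMs in 8 groups, taken from the sample labels. The authors mapped reads with STAR 2.5.2a and counted them per gene with RSEM 1.2.31. The deposited values are log2 numbers, normalised by the authors between libraries, and resemble a regularised log. The processing notes of the authors name DESeq2 1.16.1. No counts were used here, so depth is unknown and precision rests on 3 libraries per group.

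limma 3.58.1 in R 4.3.3 was fitted to all 8 groups (16 residual degrees of freedom, variance trend) with differences of group means as contrasts. Genes with a linear value of at least 5 in at least 3 libraries were tested (13901 of 24273), p-values were adjusted by the Benjamini-Hochberg method over all of them per contrast, and calls had an adjusted p under 0.05. The 95% intervals are unadjusted, so some that exclude 0 belong to differences not called. The fit was also run on simulated data, but the outcome is not given here and no result rests on it. Alternatives were quantile normalisation, TMM factors, no or a stricter filter (20), a pseudocount of 1, only the groups compared, replicate blocks, 18S content as a term or a restriction, no variance trend, and leaving out each library.

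The members and gene lists were chosen with earlier results of these data known. Named genes were the 8 members, the 3 genes of each list with the largest called difference between genotypes at any time, the 3 with the largest called LPS change at 2 h in LysM-Cre, and the 3 genes most like Socs1, Socs2, Socs3 and Cish by Pearson r; Gm17041 was added because it overlaps Cish. Loci and exon lengths came from GENCODE vM21, which held 24194 of the identifiers (99.7%), and promoter windows from RefSeq. Member proteins were not compared. A gene that the rule names is not reported here.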

Additional observations from a re-analysis of the deposited data

Results flagged for a closer look

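The LPS response differed between genotypes, by the interaction contrast of the limma fit, for 3 results. The 1 h response of Cish was smaller in FosKO (difference -0.91). The 2 h response of Socs5 was smaller in FosKO (-0.30), and that of Socs7 was larger (0.28). With 3 libraries per group, single libraries were not screened for lying apart from their group.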

How the results depend on the processing

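No called difference of a member changed sign under any alternative run. Over all contrasts, leaving out each library left 935 results for single members on their side of the threshold, with 13 calls lost and 12 gained, and the other alternatives left 1462, with 11 lost and 23 gained. Counts of members called moved by more than 1.5 times in these cases. For the difference in LPS response at 0.5 h, where 0 were called, 1 was called under quantile normalisation and under either replicate block (Socs3 in each), and leaving out 1 library gave 0 to 1. At 1 h, where 1 was called, 2 were called with TMM factors, with the stricter filter and under either replicate block (Socs5 added in each), 0 with high 18S libraries alone, and leaving out 1 library gave 1 to 2. For the LPS response at 0.5 h in LysM-Cre, where 1 was called, 2 were called with only the groups compared (Socs7 added) and with 18S content as a term (Cish added). In FosKO 1 instead of 2 was called with only the groups compared. For FosKO against LysM-Cre at 1 h, 3 instead of 5 were called with high 18S libraries alone, a fit with fewer samples. The calls of Cish and Socs2 at 0 h were lost with only the groups compared (adjusted p = 0.0967 and 0.0841), and that of Cish also with no filter (0.0626). Causes of these shifts were not tested, and the restriction to high 18S libraries changed sample number and 18S content together.

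Replicate numbers were not taken to pair the samples, since not every pair correlated at over 0.1. Deviations of same-numbered libraries correlated at over 0.1 in 2 of 12 pairs across genotypes (r from -0.53 to 0.31) and in 6 of 18 pairs within a genotype (r from 0.01 to 0.27). FosKO at 0 h and 0.5 h was the 1 comparison in which each of its 3 pairs was over 0.1 (0.19, 0.13 and 0.27), and for that LPS response 2 members were called with and without either block. With the block, the Socs3 response difference at 0.5 h was -0.49 with an adjusted p of 0.00413 as a fixed term and 0.0129 by duplicateCorrelation, and that of Socs5 at 1 h was -0.31 with 0.00603 and 0.0181. As a fixed term it also gave calls for the 2 h response of Socs5 in FosKO (-0.10, adjusted p = 0.0353), its step from 0.5 h to 1 h there (0.11, 0.0464) and the Socs3 step from 1 h to 2 h in LysM-Cre (-0.13, 0.0433), and by duplicateCorrelation for the Socs6 step from 1 h to 2 h in LysM-Cre (0.08, 0.0489).

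Counts over all genes moved by more than 1.5 times in these cases. For the difference in LPS response at 0.5 h (16), 25 were called under quantile normalisation, 6 with only the groups compared, 9 with high 18S libraries, and 10 and 9 without LysM-Cre 0.5 h replicate 2 or 3. At 1 h (169) it was 112 with only the groups compared and 93 with high 18S libraries. For the LPS response at 0.5 h in FosKO (823) it was 301 with only the groups compared and 542 without FosKO 0.5 h replicate 3. With high 18S libraries, 2994 genes instead of 4708 were called for FosKO against LysM-Cre at 1 h and 3009 instead of 4970 for the 1 h LPS response in LysM-Cre. Without depth, low members such as Socs2 have differences of unknown precision from counting.
Quantile normalisation lowered the share of called genes that were higher, from 54.6% to 43.0% between genotypes at 2 h and from 50.3% to 40.0% for LPS at 2 h in LysM-Cre, while the TMM factors gave 53.7% and 51.4%. For the step from 0.5 h to 1 h, 2471 instead of 3819 genes were called in FosKO with only the groups compared, and 2010 instead of 3725 in LysM-Cre with high 18S libraries.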
